A study of Sus scrofa with 6 samples.

Results

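Solute carriers are membrane proteins that move sugars, amino acids, ions, vitamins, nucleotides and metals across the plasma membrane and the membranes of organelles. The genes described here are the solute carriers outside the mitochondrial carrier family SLC25, taken as probes whose only listed gene symbol starts with SLC and a digit. This gave 179 genes of 43 families, each with 1 probe, of 10663 genes that have a probe with a single symbol, on an array of 12258 probes. The symbols of 2 members, SLC9A3R1 and SLC9A3R2, are older names of scaffold proteins that bind carriers and are not carriers themselves. The rule left out 25 SLC25 probes and 7 probes that list several symbols, of which 5 repeat a single carrier symbol.

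Expression was measured on 6 single-colour Affymetrix arrays in oocytes of pubertal crossbred Landrace gilts, with 3 arrays of oocytes before maturation in culture (titled in vivo oocytes) and 3 after it, each from a pool of 50 oocytes. The matured oocytes came from cumulus-oocyte complexes, in which somatic cumulus cells surround the oocyte, cultured for 44 h at 38 °C under 5% CO2 in TCM-199 medium with pyruvate, albumin, cysteine, 10% follicular fluid and the gonadotropins hCG and eCG. The culture is described for every sample, but the descriptions place the first group ahead of it, so effects of maturation and of culture or medium cannot be told apart. The design text mentions sorting by a BCB test, which the labels do not tie to single samples, and it was not used here. Pools are labelled biological replicates, and the labels do not tell whether pools came from separate animals, so p-values measure the spread between pools.

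An oocyte has little capacity of its own to use glucose and depends on the cumulus cells, which pass it pyruvate, amino acids and nucleotides through gap junctions. Carriers of both cell types take part in this supply, and zinc carriers are of interest because zinc content controls meiotic arrest and its exit. Carriers also work inside the cell, where SLC35 proteins bring nucleotide sugars into the Golgi apparatus and some SLC36 and SLC38 proteins report amino acids at the lysosome.

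Values are on the log2 scale of the authors' RMA table, and differences are after minus before maturation on that scale, where a difference of 1 is a 2-fold change. A gene is said to rise or fall only where its limma adjusted p, computed over all 12258 probes, was under 0.05. Array medians lay between 5.62 and 5.70, lower quartiles between 4.27 and 4.45 and the highest values between 12.51 and 12.65. Without detection calls no member can be placed above or below background, and the number of arrays limits the precision. Brightness of different probes is not a measure of relative amount and is given only as a percentile among all probes. Of 13 oocyte markers found by name, 13 lay above the lower quartile of all 6 arrays, with a median at percentile 99.3. Of these markers 3 fell and 0 rose, beside 8.07% and 3.21% of all probes.

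Few carriers passed the test, and the larger of the called differences were decreases. Of 179 members 5 rose and 11 fell, and the test was not passed by 163. The calls amount to 8.94% of the members beside 11.3% of all probes, with 2.79% beside 3.21% for increases and 6.15% beside 8.07% for decreases. The share of carriers called is thus near the background. The counts per role, family and list below are likewise to be read beside these shares of all probes. The median member differed by 0.08, as did the median probe, and 163 members differed by less than 0.5 in either direction. Decreases ranged from 0.42 to 2.63 in size, and increases only from 0.37 to 0.49. A measured change of at least 2-fold was found for 5 members, each of them lower (3.3% of all probes were lower by that much), and for 0 higher (0.359% of all probes).

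With the replicate number as a block in the limma fit, 8 members rose and 19 fell at an adjusted p under 0.05, and the 16 calls above were kept. That fit called 15.1% of all probes (5.07% higher and 10.0% lower), so the 27 member calls are again near the background. Of the 16 called members 10 lost the call without at least 1 array, in fits that also have fewer arrays for the test. Without replicate 1, 2 or 3 after maturation 1, 0 and 1 members rose, beside 0.84%, 0.971% and 1.66% of all probes. Without replicate 2 or 3 before it 2 and 2 rose, beside 2.1% and 1.35%. Without replicate 1 or 2 after maturation 6 and 6 members fell, beside 4.33% and 4.45%. Calls thus became fewer among all probes too. A scaling that holds 41 ribosomal protein probes level moved the median of all probes to 0.54 and that of the members to 0.54. With it 136 members rose and 5 fell, beside 77.6% and 4.36% of all probes. With each array at a common median 15 members rose and 11 fell, beside 7.46% and 7.27% of all probes. The members' median was then 0.13 and that of all probes 0.14. Both of these scalings shift every probe of an array by the same amount. Members and all probes therefore moved alike by construction, which says nothing about the members.

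**Figure D1:**
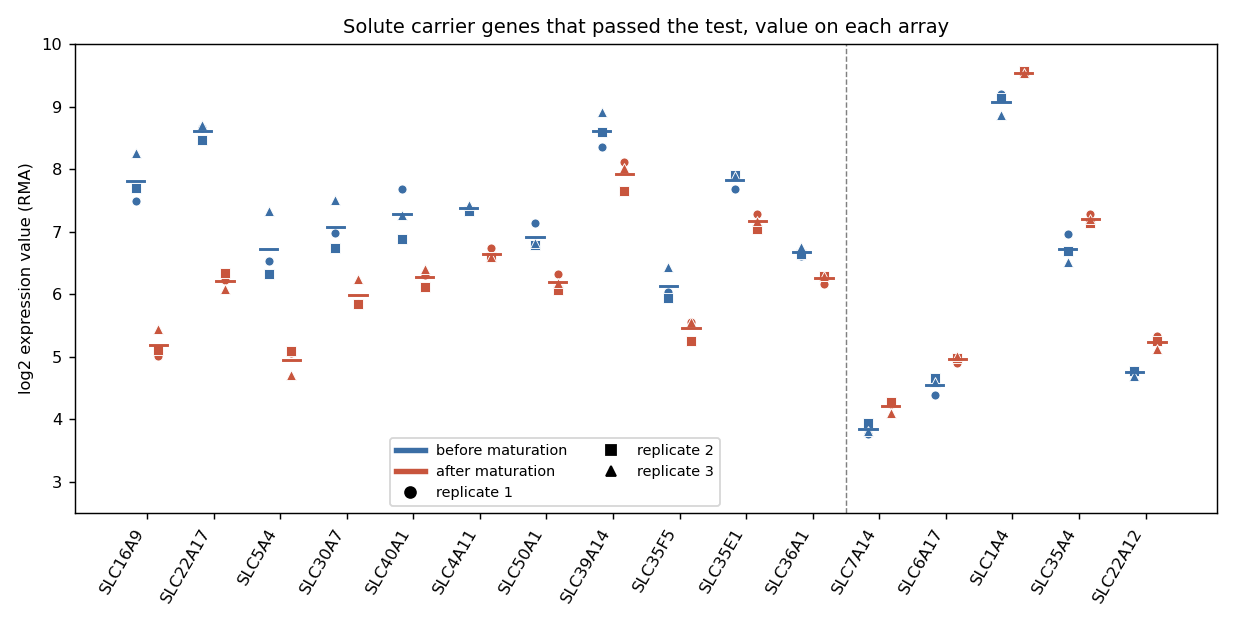
The log2 expression value (y axis) of the 16 solute carrier genes that passed the test (x axis, ordered by difference) on each array, blue before and red after maturation, with a symbol per replicate and a bar at the mean of 3. The 11 genes left of the dashed line have all red points below all blue ones, with the widest gap for SLC22A17 (2.13), and the 5 to its right have all red points above, with gaps of 0.16 to 0.33.

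The largest decrease was that of SLC16A9, which encodes the monocarboxylate transporter family member MCT9, a carnitine carrier. Its log2 values were 7.48, 7.69 and 8.26 in replicates 1, 2 and 3 before maturation and 5.00, 5.10 and 5.44 after it. Every matured pool lay far below every pool before maturation, and replicate 3 was the highest of its group on both sides. The level fell by 2.63 (SE 0.20, adjusted p = 0.000132 with limma), a measured 6.19-fold lower level with a 95% confidence interval of 4.49 to 8.53. The call and direction were kept under the 16 alternatives, in which the difference ran from -2.79 to -2.17.

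The other monocarboxylate transporters did not pass the test. SLC16A1, which encodes MCT1, the main carrier of lactate and pyruvate, had values of 9.11, 9.20 and 9.31 before and 9.40, 9.54 and 9.32 after maturation. The lowest matured pool and the highest pool before maturation nearly touched, and the difference of 0.21 did not pass the test (adjusted p = 0.205, 95% confidence interval -0.02 to 0.45). SLC16A7, which encodes the high-affinity pyruvate carrier MCT2, lay under the lower quartile of every array, with means of 3.66 ± 0.05 before and 3.75 ± 0.08 after (SD, n = 3). SLC16A8, the MCT3 gene, had a difference of 0.37 with groups that did not overlap (adjusted p = 0.0832). Of the 9 members of this family 1 fell and 0 rose, and the family's median difference was 0.14.

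SLC22A17, an organic cation transporter relative known as the receptor of the iron-binding protein lipocalin 2, showed the smallest adjusted p of the members. Values of 8.66, 8.47 and 8.70 before maturation were followed by 6.22, 6.33 and 6.08 after it. The pools of each group were close together and the groups were far apart, with a gap of 2.13 between the nearest arrays. The level fell by 2.40 (SE 0.11, adjusted p = 1.19e-05), 5.27-fold with an interval of 4.44 to 6.27, and it was called under all 16 alternatives with differences of -2.47 to -1.94.

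In the opposite direction within the same family stood SLC22A12, which encodes the urate carrier URAT1 of the kidney. Its values of 4.78, 4.78 and 4.69 before and 5.33, 5.26 and 5.12 after maturation were all in the dim part of the array, at percentile 38.8. Groups did not overlap, and the level rose by 0.49 (SE 0.10, adjusted p = 0.015). That call was lost without replicate 1 or 2 after maturation (differences of 0.44 to 0.47, adjusted p of 0.0603 to 0.0694). Of the 21 carriers of organic ions, bile acids, peptides and urea 1 rose and 1 fell, and SLC10A7, a relative of the bile acid carriers, had a difference of -0.39 (adjusted p = 0.112) that turned to 0.06 with ribosomal protein genes held level.

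Sugar carriers held 2 of the decreases. SLC5A4 encodes SGLT3, a sodium-linked member of the glucose carrier family that acts as a glucose sensor in some tissues. Its values were 6.53, 6.33 and 7.33 before maturation and 5.06, 5.09 and 4.71 after it. Replicate 3 was the highest of its group before and the lowest after maturation, and the groups stayed apart by 1.24. The level fell by 1.78 (SE 0.24, adjusted p = 0.00275), 3.42-fold with an interval of 2.33 to 5.03, and was called under all 16 alternatives. SLC5A1, the SGLT1 gene, is the neighbour of SLC5A4 in the RefSeq gene order of assembly Sscrofa11.1. It had levels of 4.04 ± 0.06 and 4.10 ± 0.03 and a difference of 0.05 (adjusted p = 0.694), and it was chosen for this position after values were seen. In that order 6 pairs of members were next to each other, and SLC5A4 was the only member of them that passed the test.

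SLC50A1, the animal gene of the SWEET sugar efflux family, gave 7.14, 6.79 and 6.82 before and 6.32, 6.07 and 6.18 after maturation. All matured pools were lower than all pools before maturation. It fell by 0.73 (SE 0.12, adjusted p = 0.00783), and the call was kept when any 1 array was left out. When ribosomal protein probes were held level it was not called (-0.27, adjusted p = 0.128).

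Facilitative glucose transporters of the SLC2 family did not pass the test in any of 7 members. SLC2A8, which encodes the intracellular transporter GLUT8, had 8.15, 8.39 and 7.94 before and 8.25, 8.04 and 8.07 after maturation, with full overlap (difference -0.04, interval -0.34 to 0.26). The sign of so small a difference turned under several scalings. SLC2A10 (GLUT10) differed by -0.10 (interval -0.34 to 0.13), which became 0.36 with ribosomal protein genes held level. SLC2A2, the GLUT2 gene, was among the brightest members at percentile 98.2, with 10.42, 10.59 and 10.88 before and 10.91, 10.76 and 10.89 after maturation. Its groups overlapped, and its difference was 0.22 (adjusted p = 0.277). SLC37A3, of the sugar phosphate carriers, was not called at -0.56 (adjusted p = 0.0651), and it was called with the replicate block (adjusted p = 0.0196). The 20 sugar carriers are a group formed by family number that also holds the iodide carrier SLC5A5 and the choline carrier SLC5A7. Over all 20, 2 fell and 0 rose, beside 8.07% and 3.21% of all probes, and the median was -0.03.

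**Figure D2:**
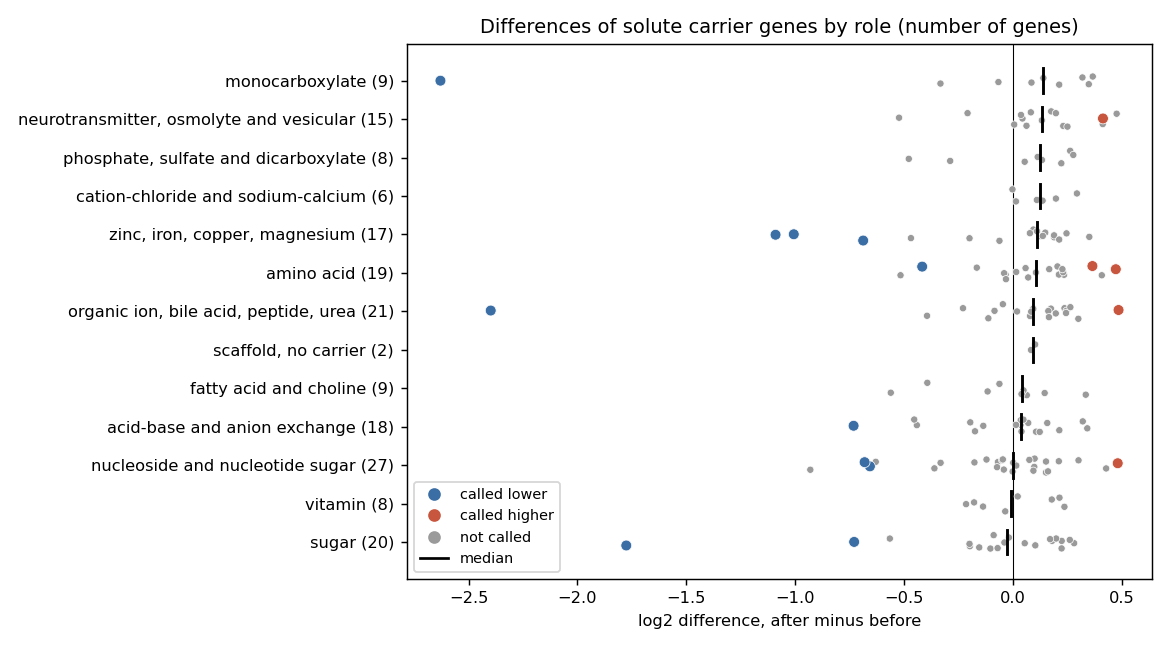
The log2 difference (x axis, after minus before maturation) of each of the 179 genes, in rows by role with the number of genes in brackets. Blue points fell, red points rose, grey points did not pass the test, and the black bar is the row's median. The medians lie between -0.03 for sugar carriers and 0.14 for monocarboxylate carriers, while single genes reach -2.63.

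Metal carriers fell at 3 of 17 members and rose at 0, beside 8.07% and 3.21% of all probes. SLC30A7 encodes ZnT7, which loads zinc into the Golgi apparatus. Its values were 6.98, 6.73 and 7.51 before and 5.85, 5.84 and 6.24 after maturation, with replicate 3 the highest in each group and no overlap. It fell by 1.09 (SE 0.20, adjusted p = 0.0115), 2.13-fold with an interval of 1.55 to 2.93. SLC40A1 encodes ferroportin, the iron exporter, with 7.67, 6.89 and 7.27 before and 6.30, 6.11 and 6.40 after maturation. Its pools before maturation were spread widely, yet none reached down to the matured ones. SLC40A1 fell by 1.01 (SE 0.19, adjusted p = 0.0121), 2.01-fold with an interval of 1.49 to 2.71. Both calls were lost without replicate 1 or 2 after maturation, where the differences were -1.03 to -1.02 for SLC30A7 (adjusted p of 0.0599 to 0.0616) and -1.02 to -0.93 for SLC40A1 (0.0546 to 0.0615).

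SLC39A14 encodes ZIP14, an importer of zinc, iron and manganese. Values of 8.35, 8.59 and 8.91 before and 8.12, 7.65 and 8.01 after maturation did not overlap, though the nearest arrays were only 0.23 apart. SLC39A14 fell by 0.69 (SE 0.17, adjusted p = 0.0381), and the call was lost without any of replicates 2 and 3 before and 1, 2 and 3 after maturation (differences of -0.78 to -0.54, adjusted p of 0.071 to 0.124). It was also lost when ribosomal protein probes were held level (-0.23, adjusted p = 0.189). SLC30A9 stood at 8.11, 8.07 and 8.69 before and 7.77, 7.81 and 7.89 after maturation without overlap. Its difference of -0.47 did not pass the test (adjusted p = 0.104), but did so with the replicate block (adjusted p = 0.0492).

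Most zinc carriers did not pass the test. Among 5 members of the zinc exporter family SLC30 1 fell, and among 9 of the importer family SLC39 1 fell, with family medians of -0.20 and 0.12. With ribosomal protein genes held level 12 of the 17 metal carriers rose and 2 fell, in a fit in which 77.6% of all probes rose and 4.36% fell. The importers SLC39A6 and SLC39A10 and the exporter SLC30A1 were in the list of carriers to be named and were not analysed here. Of 5 genes of metal binding and uptake found by name, 0 passed the limma test at an adjusted p under 0.05. The ferritin light chain gene FTL differed by 0.23 (adjusted p = 0.198), and the transferrin receptor gene TFRC by -0.39 (adjusted p = 0.286). When the ribosomal protein probes were held level FTL was called higher and TFRC turned to 0.07.

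Amino acid carriers held 2 of the 5 increases. SLC1A4 encodes ASCT1, a sodium-dependent exchanger of alanine, serine and cysteine. Its values were 9.20, 9.14 and 8.86 before and 9.51, 9.57 and 9.54 after maturation. The matured pools were almost equal and all lay above the earlier ones. The level rose by 0.47 (SE 0.11, adjusted p = 0.0291), 1.39-fold with an interval of 1.17 to 1.65. That call was lost without replicates 2 or 3 before maturation or any 1 replicate after it (differences of 0.37 to 0.51, adjusted p of 0.0536 to 0.0986).

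SLC1A5, the ASCT2 gene for a glutamine exchanger of the same family, was the brightest member at percentile 99.3. Its values were 11.18, 11.43 and 10.94 before and 11.10, 11.11 and 11.25 after maturation, with the matured pools inside the earlier range. The difference was -0.03 with an interval of -0.33 to 0.27 (adjusted p = 0.883), and its sign turned with a common median (0.02), with ribosomal protein genes held level (0.43) and without replicate 2 before maturation (0.09). SLC1A1, a glutamate carrier, differed by 0.11 (interval -0.11 to 0.33).

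SLC7A14, a lysosomal relative of the cationic amino acid carriers, lay under the lower quartile of every array. Its values were 3.76, 3.94 and 3.82 before and 4.25, 4.27 and 4.10 after maturation. The groups did not overlap and the level rose by 0.37 (SE 0.10, adjusted p = 0.0466). Leaving out any 1 of the 6 arrays ended the call (differences of 0.33 to 0.42, adjusted p of 0.0608 to 0.146). So did a second quantile normalization (0.28, adjusted p = 0.0781), cyclic loess (0.27, adjusted p = 0.0985) and array weights (0.33, adjusted p = 0.0558). SLC7A7, which encodes the light chain y+LAT1 and is bright at percentile 97.7, differed by 0.06 (interval -0.15 to 0.26), a sign that turned with cyclic loess (-0.01). SLC3A1, the heavy chain gene of the cystine carrier, had a difference of 0.21 (interval -0.06 to 0.47).

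SLC38A3 encodes SNAT3, a glutamine and alanine carrier known from cumulus cells. Its pools gave 7.47, 7.30 and 6.85 before and 7.66, 7.60 and 7.58 after maturation, without overlap. Its difference of 0.41 did not pass the test (adjusted p = 0.126, interval 0.06 to 0.76). The lowest value belonged to replicate 3 before maturation.

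Of 3 carriers of the SLC36 family, which move small amino acids out of lysosomes and across the plasma membrane, 1 fell. SLC36A1 encodes PAT1, a proton-coupled carrier of small amino acids, with 6.61, 6.63 and 6.76 before and 6.16, 6.29 and 6.30 after maturation. All matured pools lay below the earlier ones, and the level fell by 0.42 (SE 0.09, adjusted p = 0.025). Its sign turned when ribosomal protein probes were held level (0.04), and the call was lost without any of replicates 2 and 3 before and 1, 2 and 3 after maturation (differences of -0.44 to -0.37, adjusted p of 0.0563 to 0.0992). It was also lost after a second quantile normalization (-0.26, adjusted p = 0.101) and with a trended, robust prior (-0.42, adjusted p = 0.0645). SLC36A4 differed by -0.52, from 5.25, 5.54 and 6.09 to 4.97, 5.20 and 5.17 (adjusted p = 0.129), and was called with the replicate block (adjusted p = 0.0486). Over the 19 amino acid carriers 2 rose and 1 fell, beside 3.21% and 8.07% of all probes, with 16 not called and a median of 0.11. With the replicate block 2 of them fell, beside 10.0% of all probes.

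Genes that cells induce when amino acids run short were read beside these carriers. Of 11 found by name 4 rose and 1 fell, beside 3.21% and 8.07% of all probes. The others did not pass the test and are named to complete the list. Their differences were -0.10 for ATF4, -0.03 for ASNS, -0.26 for DDIT3, -0.41 for DDIT4, 0.40 for CHAC1 and 0.16 for PSPH. TRIB3, a pseudokinase gene, rose by 1.01 from 5.34 ± 0.14 to 6.35 ± 0.03 (SD, n = 3, adjusted p = 0.00051). PSAT1, an enzyme gene of serine synthesis, rose by 0.71 (adjusted p = 0.015), a call lost without replicate 1 after maturation (0.71, adjusted p = 0.0643). SESN2 and PHGDH, named here only to complete the count after their values were seen, rose by 0.52 and 0.55 (adjusted p = 0.0451 and 0.0254). Both lost the call without 4 of the 6 single arrays (differences of 0.44 to 0.52, adjusted p of 0.0987 to 0.151 for SESN2, and 0.46 to 0.56, 0.0659 to 0.0778 for PHGDH). SESN2 also lost it with a trended, robust prior (adjusted p = 0.0535), and PHGDH after a second quantile normalization and with cyclic loess (0.46 and 0.44, adjusted p = 0.0538 and 0.06). VLDLR, a lipoprotein receptor gene, fell by 0.56 (adjusted p = 0.0159), and its call was lost without replicate 1 or 2 after maturation (-0.58 and -0.52, adjusted p = 0.0583 and 0.0686).

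Neurotransmitter, osmolyte and vesicular carriers had 1 increase among 15 members, and 3 with the replicate block (SLC6A17, SLC32A1 and SLC6A7). Of all probes 3.21% rose, and 5.07% with the block. SLC6A17, a vesicular carrier of neutral amino acids known from neurons, had 4.38, 4.66 and 4.60 before and 4.89, 4.98 and 5.01 after maturation, at percentile 34.0. The groups did not overlap and the level rose by 0.41 (SE 0.10, adjusted p = 0.0388), a call lost without any of replicates 1 and 3 before and 1, 2 and 3 after maturation (differences of 0.33 to 0.45, adjusted p of 0.0642 to 0.116). SLC6A17 was not called after a second quantile normalization (0.34, adjusted p = 0.0698) or with cyclic loess (0.31, adjusted p = 0.11). SLC18B1, a vesicular polyamine carrier, stood at 4.58, 4.54 and 5.43 before and 4.31, 4.28 and 4.39 after maturation, with replicate 3 before maturation far above the others and a difference of -0.52 (adjusted p = 0.157). SLC17A1, a renal phosphate and urate carrier whose probe lay at percentile 96.0, had nearly equal pools before maturation (10.33, 10.33 and 10.31) above those after it (10.03, 10.17 and 10.15). Its difference of -0.21 did not pass the test (adjusted p = 0.157) and turned to 0.25 with ribosomal protein genes held level.

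Carriers of nucleosides and nucleotide sugars were the most numerous role, with 27 members, of which 1 rose and 2 fell, with 24 not called. With the replicate block 2 rose and 4 fell, with SLC35F6 added to the increases and SLC35A3 and SLC35B3 to the decreases. Of all probes 3.21% rose and 8.07% fell, and 5.07% and 10.0% with the block. SLC35E1, an orphan of the nucleotide sugar family, had 7.68, 7.90 and 7.89 before and 7.29, 7.05 and 7.17 after maturation. Pools of a group were close and the groups did not overlap. SLC35E1 fell by 0.66 (SE 0.11, adjusted p = 0.00645), and the call was kept when any 1 array was left out but was lost with ribosomal protein genes held level (-0.20).

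SLC35F5, a further orphan, gave 6.03, 5.93 and 6.44 before and 5.56, 5.25 and 5.56 after maturation. The matured pools were all lower, and the level fell by 0.68 (SE 0.15, adjusted p = 0.0259), a call lost without replicate 1, 2 or 3 after maturation (differences of -0.73 to -0.58, adjusted p of 0.0553 to 0.0977). Holding ribosomal protein probes level ended it too (-0.22, adjusted p = 0.195). SLC35A4 went the other way, from 6.97, 6.69 and 6.52 to 7.27, 7.14 and 7.20. It rose by 0.48 (SE 0.12, adjusted p = 0.0441), and the call was lost without any of replicates 2 and 3 before and 1, 2 and 3 after maturation (differences of 0.38 to 0.51, adjusted p of 0.1 to 0.146) and with a trended, robust prior (adjusted p = 0.0614).

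SLC35A3, which brings UDP-N-acetylglucosamine into the Golgi apparatus, had the largest difference of any member that did not pass the test. Its values were 6.45, 6.62 and 7.70 before and 6.02, 5.57 and 6.39 after maturation, and replicate 3 was the highest in each group. The difference of -0.93 had an SE of 0.33 (adjusted p = 0.107). With the replicate block it was called (adjusted p = 0.00974). SLC29A1, which encodes the nucleoside carrier ENT1, had 8.08, 8.10 and 8.02 before and 8.15, 7.95 and 8.09 after maturation, and its interval ran from -0.22 to 0.21. Its sign turned under scalings and left-out arrays, as a value this close to 0 can. The whole role had a median of -0.001, with 13 positive and 14 negative differences.

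Acid-base and anion carriers held 1 decrease in 18 members, and 2 with the replicate block (SLC4A11 and SLC9A8). Of all probes 8.07% fell, and 10.0% with the block. SLC4A11, a bicarbonate carrier relative that moves protons and ammonia, had tight values of 7.36, 7.33 and 7.42 before and 6.74, 6.59 and 6.60 after maturation. The groups were apart by 0.59, several times the spread within each. The level fell by 0.73 (SE 0.09, adjusted p = 0.00164), 1.66-fold with an interval of 1.44 to 1.92. The call was kept without any 1 array and lost when ribosomal protein probes were held level (-0.27, adjusted p = 0.0968), which shifts all probes alike. SLC9B1, a sodium and proton exchanger known from sperm, had a difference of -0.45 (adjusted p = 0.157) that turned to 0.01 under that scaling. The scaffold genes SLC9A3R1 and SLC9A3R2 differed by 0.08 and 0.10 and did not pass the test.

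The remaining roles had no call with limma at an adjusted p under 0.05. With the replicate block 1 decrease each was called for fatty acid and choline carriers (SLC44A2) and for phosphate, sulfate and dicarboxylate carriers (SLC34A2). In that fit 10.0% of all probes fell. Among the 9 fatty acid and choline carriers SLC44A1, a choline transporter gene, had 6.52, 6.78 and 7.35 before and 6.44, 6.15 and 6.38 after maturation (difference -0.56, adjusted p = 0.107). Among 8 carriers of phosphate, sulfate and dicarboxylates SLC34A2 had a difference of -0.48 (adjusted p = 0.0667), which was called with the replicate block (adjusted p = 0.0382). SLC12A1, the kidney cotransporter NKCC2 and 1 of 6 cation-chloride and sodium-calcium carriers, lay under the lower quartile of every array and had a difference of 0.29 (adjusted p = 0.0653). Of the 8 vitamin carriers by family number SLC23A1, a vitamin C carrier, differed by 0.24 (adjusted p = 0.163). SLC46A2, at percentile 98.8, had 10.79, 10.88 and 10.79 before and 11.04, 11.05 and 11.01 after maturation, a small difference of 0.21 without overlap (adjusted p = 0.141).

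Of the 5 probes that repeat a carrier symbol and so are no members, SLC6A8 passed the test, and it was singled out after its values were seen. This gene encodes the creatine transporter. Its values were 7.84, 7.73 and 7.89 before and 7.25, 6.96 and 7.55 after maturation, without overlap. It fell by 0.57 (SE 0.15, adjusted p = 0.0434 with limma), a call lost without any of replicates 1, 2 and 3 before and 1 and 2 after maturation (differences of -0.62 to -0.42, adjusted p of 0.0722 to 0.129), and with several scalings.

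The position of the members on the scale of brightness was uneven in respect of the calls. Split by mean value over all arrays, 10 of the 11 decreases lay in the band from percentile 50 to 75, which held 47 members, while 16.4% of all probes in that band fell. In the dimmest band, up to percentile 25, 43 members had 0 decreases and 1 increase, beside 0.685% and 1.01% of all probes there. Differences were positive for 32 of those 43 dim members and 44 of 56 in the next band, against 18 of 47 in the band above and 20 of 33 in the brightest. Among all probes the corresponding shares were 78.4%, 70.6%, 49.7% and 62.9%. Of the members 36 lay under the lower quartile on all 6 arrays and 29 above the upper quartile.

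**Figure D3:**
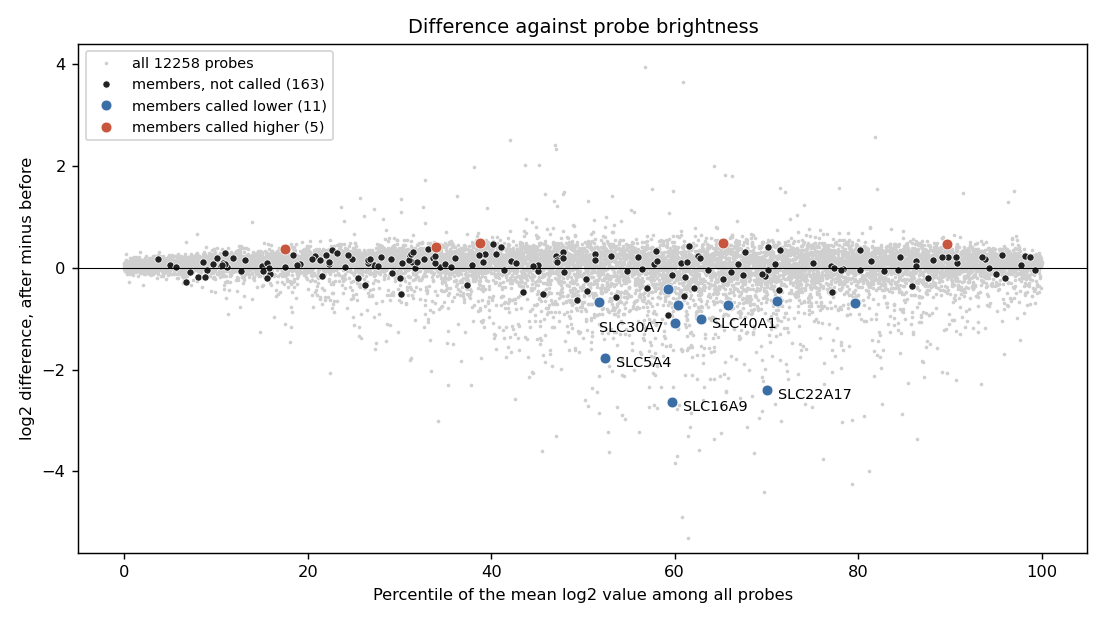
The log2 difference (y axis, after minus before maturation) against the percentile of the mean log2 value among all probes (x axis). Grey dots are the 12258 probes, black dots the 163 members not called, blue dots the 11 that fell and red dots the 5 that rose, with the 5 members lower by at least 2-fold named. Called decreases lie between percentiles 51.8 and 79.7, and the called increases between 17.5 and 89.7.

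The 2 groups were fully separate, without overlap, for 43 members in the higher direction, 24.0% beside 21.7% of all probes, and for 31 in the lower direction, 17.3% beside 14.4%. Only 16 of these 74 members passed the test. For a single gene, the smallest two-sided p of an exact permutation test on these arrays is 0.1. Replicate 3 before maturation was the highest of its group in 19 of the 31 members that were apart and lower, and the lowest in 25 of the 43 that were apart and higher. Among all probes apart in those directions it was the extreme in 61.2% and 52.2%. Replicate spread was otherwise ordinary, with a median SD of 0.13 before and 0.11 after maturation over members, and of 0.13 and 0.12 over all probes.

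Cumulus and granulosa markers went in both directions, more of them lower. Of 17 such markers found by name 10 fell and 3 rose, beside 8.07% and 3.21% of all probes. Their median was -0.69, and none was listed at 0. Decreases reached -4.41 for HSD17B1, and the increases were HSD3B1 (3.95), GSTA1 (1.30) and PTX3 (0.67). LHCGR (-0.54), KITLG (-0.06), ESR2 (0.28) and TNFAIP6 (0.25) did not pass the test. The only marker of this list under the lower quartile on all 6 arrays was TNFAIP6. The summed linear level of the 17 markers, again as log2, was 13.04 to 13.48 before and 12.29 to 12.36 after maturation. Pools came from cumulus-oocyte complexes. In such bulk samples a different number of cumulus cells and a different RNA level per cell, of all or of single genes, cannot be told apart. The part of these cells in the carrier results was not tested. Of 10 theca and stroma markers 1 fell (ACTA2, -1.93) and 2 rose (POSTN, 1.20, and COL3A1, 0.37), beside 8.07% and 3.21% of all probes. POSTN and COL3A1 each lay under the lower quartile on 4 arrays. Of 7 endothelial markers 0 were called with limma, and of 9 leukocyte and erythroid markers 1 rose (CD3E, 0.48). With the replicate block 1 endothelial and 2 leukocyte and erythroid markers rose, beside 5.07% of all probes. The leukocyte and erythroid markers PTPRC and ALAS2 lay under the lower quartile on all 6 arrays, as did the endothelial marker KDR and the theca and stroma markers CYP17A1 and LUM.

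Genes that couple to carriers were read from lists of partners, pumps and channels. Of 8 partners and regulators of carriers 1 fell and 0 rose (8.07% and 3.21% of all probes). This was TXNIP, an arrestin that removes glucose transporters from the cell surface, with 9.86 ± 0.13 before and 8.37 ± 0.22 after maturation (SD, n = 3, difference -1.49, adjusted p = 0.000263). Of 6 sodium pump genes, whose pump supplies the gradient that many carriers use, ATP1B2 fell by 0.64 (adjusted p = 0.00339) and 0 rose. With ribosomal protein genes held level ATP1B2 was not called (-0.19).

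Of 8 connexins, the subunits of gap junctions, 2 fell and 1 rose, and 2 rose with the replicate block. Of all probes 8.07% fell and 3.21% rose, and 5.07% rose with the block. GJA1, the connexin 43 gene, fell by 2.27 (adjusted p = 2.45e-05), and it is counted among the cumulus markers too. GJA5, the connexin 40 gene, fell by 1.62, from 7.44 ± 0.12 to 5.82 ± 0.20 (adjusted p = 0.000132). GJB5 rose by 0.44 from 4.57 ± 0.08 to 5.01 ± 0.01 (adjusted p = 0.0156), a call lost without replicate 1, 2 or 3 after maturation (differences of 0.44 to 0.45, adjusted p of 0.0511 to 0.0608) and with cyclic loess.

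**Figure D4:**
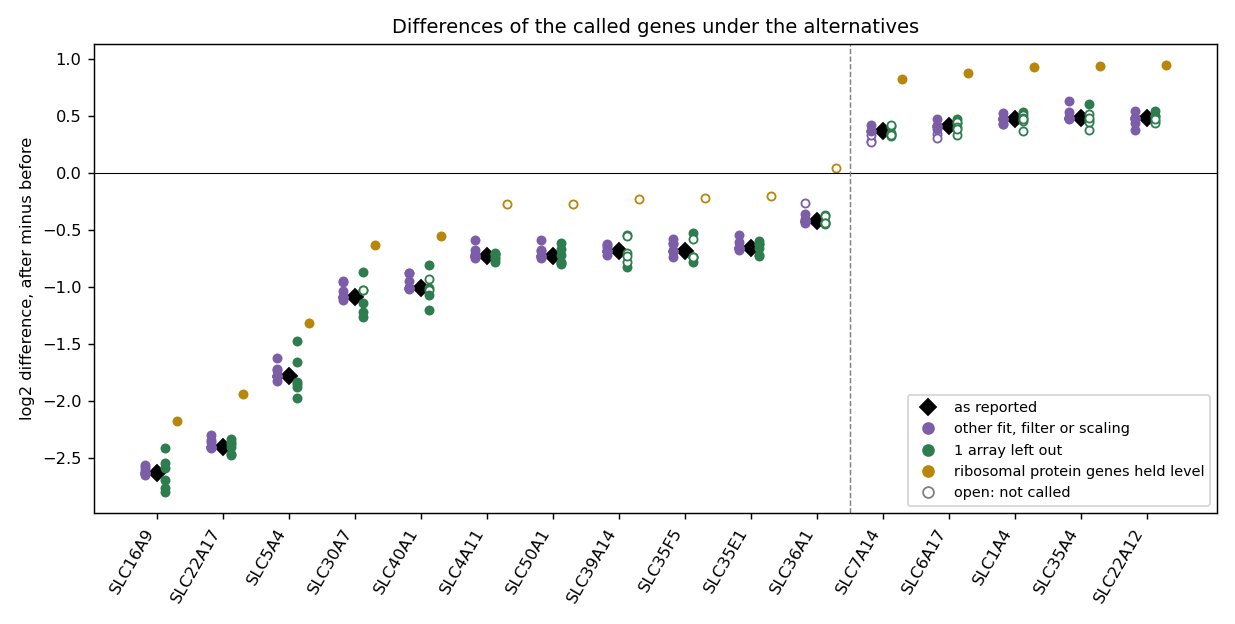
The log2 difference (y axis, after minus before maturation) of each of the 16 called genes (x axis) as reported (black diamond), with 1 array left out (green), with other fits, filters or scalings (purple) and with ribosomal protein genes held level (gold), filled where called and open where not. The 3 genes at the left, SLC16A9, SLC22A17 and SLC5A4, are filled throughout. With ribosomal protein genes held level SLC36A1 crosses 0 to 0.04, and the 5 genes at the right rise to between 0.82 and 0.94.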

How the data were processed

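The authors deposited 1 table of log2 values made with RMA, per the submitters' processing notes, which as usually run subtracts background, quantile-normalizes arrays and summarises probes, so it can hide a shift shared by most genes. For the RMA version, its settings and any probe filter the sources used here give nothing, and the log2 scale was inferred from the range of values. RNA (100 ng per pool) was amplified in 2 rounds and biotin-labelled, per the labels' protocols.

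Probe symbols came from the platform annotation, with 10715 of 12258 probes listing 1 symbol. Gene identifiers of 167 members matched the RefSeq table of assembly Sscrofa11.1, and 167 of these had the same symbol. All probes were fitted with limma 3.58.1 in R 4.3.3 (lmFit, eBayes, two-sided), with Benjamini-Hochberg adjustment and a threshold of 0.05. On simulated data of the same size (12258 probes, 40 per size) this fit found 40 probes lowered by a log2 change of -2, 38 lowered by -1 and 17 by -0.5. It found 38 raised by 1 and 20 by 0.5, beside 7 of 12058 unchanged probes. The simulated noise was independent between probes and arrays, and far fewer probes were changed than were called in the data. The counts therefore describe the simulated setting and need not hold for these data.

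Same-numbered arrays deviated together from their group means (correlations of 0.283, 0.120 and 0.142). For arrays of unlike number the correlations were -0.168 to 0.019, and deviations within a group are not independent of each other. This is only a hint from the data that the numbers pair the arrays. The fit without the block is the one reported, with the blocked value where it changes a call. The members, lists and tests were chosen with earlier results of these data known. Roles follow family numbers. Named are called members, the 10 measured of a panel of 32 carriers, the 5 brightest, per role the uncalled member with the largest non-overlapping difference, and companion genes by p. Further genes were named after values were seen, to complete counts. Alternatives were the replicate block, 4 scalings, filters on dim probes (25% and 50%), trend and robust, array weights, averaged probes, updated symbols and leaving out each array. Tables and figures used Python 3.11.15, pandas 2.3.3 and matplotlib 3.10.9.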

Additional observations from a re-analysis of the deposited data

How the results depend on the processing

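SLC16A9, SLC22A17 and SLC5A4 were called lower under every alternative run on them. SLC4A11, SLC50A1 and SLC35E1 lost the call only with ribosomal protein genes held level, which raised the difference of every probe by the same amount. The other 10 called members lost it without at least 1 array, and some of them also with ribosomal protein genes held level (SLC39A14, SLC35F5 and SLC36A1), after a second quantile normalization (SLC36A1, SLC6A17 and SLC7A14), with cyclic loess (SLC6A17 and SLC7A14), with a trended, robust prior (SLC36A1 and SLC35A4) or with array weights (SLC7A14). Members rose at 8 and fell at 19 with the replicate block (beside 5.07% and 10.0% of all probes). They rose at 15 with a common median (7.46% of all probes), 3 with cyclic loess (2.07%) and 2 without the dimmest 50% of probes (3.44%). With ribosomal protein genes held level they rose at 136 and fell at 5 (beside 77.6% and 4.36%). Without 1 array 0 to 5 members rose and 6 to 16 fell (beside 0.84% to 3.54% and 4.33% to 8.26% of all probes). Among all probes 621 rose and 1226 fell with the replicate block, and increases were 915 with a common median, 596 after a second quantile normalization, 254 with cyclic loess and 211 without the dimmest 50%, while 9516 rose and 535 fell with ribosomal protein genes held level, and without 1 array 103 to 434 rose and 531 to 1013 fell. Decreases were 989 of the 1383 calls on the deposited scale and 891 beside 915 increases with a common median. The members' median of 0.08 became 0.135 with a common median, 0.044 after a second quantile normalization, -0.0104 with cyclic loess, 0.537 with ribosomal protein genes held level, -0.0246 without the dimmest 50%, and 0.057 to 0.079 without 1 array. A common median and ribosomal protein genes held level shift every probe of an array by the same amount, which sets the moves of the median under them. The cause of the other moves was not tested, apart from the fewer arrays or probes that some alternatives leave.

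Signs turned with ribosomal protein genes held level for SLC36A1 (0.042), SLC2A8 (0.420), SLC2A10 (0.355), SLC1A5 (0.425), SLC29A1 (0.458), SLC17A1 (0.25), SLC9B1 (0.0055), SLC10A7 (0.064) and TFRC (0.070). They turned with a common median for SLC2A8 (0.018), SLC1A5 (0.023) and SLC29A1 (0.055). Each of these scalings raised the difference of every probe by the same amount, so these turns are not particular to the genes. Signs also turned after a second quantile normalization for SLC2A8 (0.014) and SLC29A1 (0.053), and with cyclic loess for SLC16A7 (-0.0035) and SLC7A7 (-0.010). Without 1 array the differences spanned 0 for SLC2A8 (-0.150 to 0.076), SLC1A5 (-0.152 to 0.088) and SLC29A1 (-0.045 to 0.058). Apart from SLC36A1 none of these was called on the deposited scale. The replicate block ended no call of a named member or companion gene. Among members it added increases of SLC32A1, SLC35F6 and SLC6A7. It added decreases of SLC36A4, SLC35A3, SLC34A2, SLC37A3, SLC30A9, SLC35B3, SLC44A2 and SLC9A8. Updated symbols and averaged probes left the counts of members at 5 and 11. No level was set against background, so folds of dim members are not exact.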
